A study of Rattus norvegicus with 50 samples.

Results

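A set of 163 genes reached most of their adult expression in rat medial prefrontal cortex between postnatal days 8 and 14 and then held a near-level plateau. They were picked from 29516 Ensembl gene identifiers by their own values, so the shape of their course is a description and not a result. The values are FPKM, read counts scaled to transcript length and library size, divided by a scaling factor for each library. A gene had to average at least 1 FPKM over the 50 libraries and to rise by at least 0.8 on the log2(FPKM + 0.5) scale from day 8 to day 14. Its day 70 mean had to lie within 0.4 of the day 14 mean, and its day 21 mean within 0.4 of the day 70 mean. Each day's mean was taken over 10 libraries of both genotypes. Day 35 entered the scaling and the average over the 50 libraries, but not the limits on the course. The rule also lists 12 identifiers to leave out, and 0 of them met the thresholds.

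The tissue came from Wistar rats, either wild-type or carrying a knock-out of the serotonin transporter (SERT), the membrane protein that returns released serotonin to the cell. How the knock-out was made, whether animals were homozygous and their sex are not given in the sources used here. Each genotype was sampled at postnatal days 8, 14, 21, 35 and 70, with 5 libraries per genotype and age made from RNA depleted of ribosomal RNA. The labels do not say that the 5 libraries of a group are 5 separate rats, and a p-value then reflects only how these libraries vary, which may be technical. In whole tissue, fewer cells of a type and less RNA per cell cannot be told apart.

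As background, the weeks between birth and weaning are the period in which rat cortex forms most of its synapses, extends dendrites and axons, gains mature glia and moves from spontaneous to sensory-driven activity. The serotonin transporter is expressed transiently by some forebrain neurons in early life, and serotonin is known to influence the growth of cortical circuits at that time. The deposited tables give identifiers without gene symbols, and the reference table used here matched 0 of them. The 163 genes are therefore described by identifier and level, with no statement about function, cell type, position or promoter. The tissue and the knock-out could not be checked against marker genes for the same reason.

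Of the genes averaging at least 1 FPKM, 515 rose by 0.8 or more from day 8 to 14. Among these, 280 ended at least 0.4 higher at day 70 than at day 14, 48 ended at least 0.4 lower, and 187 lay within 0.4. A further 24 of the 187 were set aside because day 21 stood 0.4 or more away from day 70. The 163 that were left are a minority of the early risers, and the other 352 early risers serve as the comparison below. The 2 smallest rises inside the limit were both 0.80, and the 2 largest just outside were 0.80 as well. The day 70 difference closest to its limit was -0.40 inside and 0.40 outside, and for day 21 the values were 0.40 and 0.42. The lowest mean inside was 1.02 FPKM and the highest outside 0.995 FPKM. The edge of the list is therefore a cut through a continuous range.

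The 163 genes doubled in the median. Their log2 rise from day 8 to 14 ran from 0.80 to 2.12 with a median of 1.00, which is 2.01-fold and at most 4.36-fold on the scale of FPKM + 0.5. It was 1 or more in 82 genes and 1.5 or more in 15. Over all 13213 genes averaging at least 1 FPKM the median change was -0.01. Mean levels spanned 1.02 to 225 FPKM with a median of 14.1, against 6.98 FPKM for those 13213 genes. There were 43 genes under 5 FPKM, 96 from 5 to 50 and 24 at 50 or more, and the median rise in these classes was 1.03, 0.97 and 1.00. Every class was held to the same limit of 0.8, so these medians do not show how the rise relates to level. In 127 of the 163, all 10 libraries of day 14 lay above all 10 of day 8, where this held for 6.63% of all 14779 genes tested. All 5 lay above all 5 in 139 genes within wild-type libraries (11.3% of all genes) and in 151 within knockout libraries (12.5%). The choice of the genes used this contrast.

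**Figure D1:**
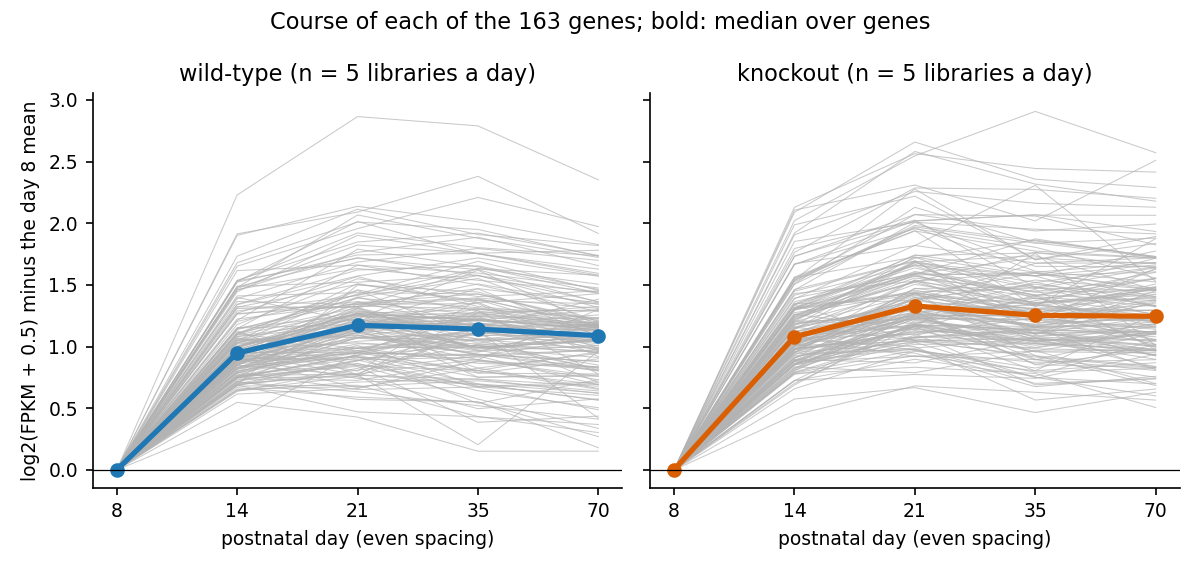
Course of each of the 163 genes in wild-type (left) and knockout (right) libraries, as the group mean of log2(FPKM + 0.5) minus that of day 8 (vertical axis) by postnatal day (horizontal axis, evenly spaced). Grey lines are single genes and the bold line is their median, which rises by 0.95 in wild-type and 1.08 in knockout libraries from day 8 to 14 and changes by 0.19 and 0.26 in the median gene from day 14 to 21.

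ENSRNOG00000019422 had the largest rise. At day 8 its 10 libraries lay between 1.01 and 2.02 FPKM with a median of 1.27. At day 14 they lay between 5.66 and 10.4 FPKM with a median of 7.91, clear of every day 8 value. Its later levels were less settled than its place in the list might imply. The medians were 12.7 FPKM at day 21, 13.7 at day 35 and 10.5 at day 70, and single libraries spanned 7.35 to 15.8 FPKM at day 21 and 5.53 to 14.4 FPKM at day 70.

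ENSRNOG00000006204 came next and was more uniform. It went from 2.10 to 6.45 FPKM at day 8 (median 4.08) to 14.3 to 19.1 at day 14 (median 16.1). The medians were 21.1 FPKM at day 21, 19.7 at day 35 and 19.4 at day 70, and no library of these ages fell below 14.1. The libraries of days 14 to 70 overlapped between neighbouring ages except between days 14 and 21. The log2 rise was 2.12 for the first gene and 1.93 for the second.

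The most abundant of the 163 genes shows the course at a high level. Its 10 libraries lay between 92.2 and 118 FPKM at day 8, with a median of 103, and between 154 and 273 at day 14. The medians then went to 249 FPKM at day 21, 288.5 at day 35 and 266 at day 70. It thus gained most of its level by day 14 but went on rising in the next weeks.

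**Figure D2:**
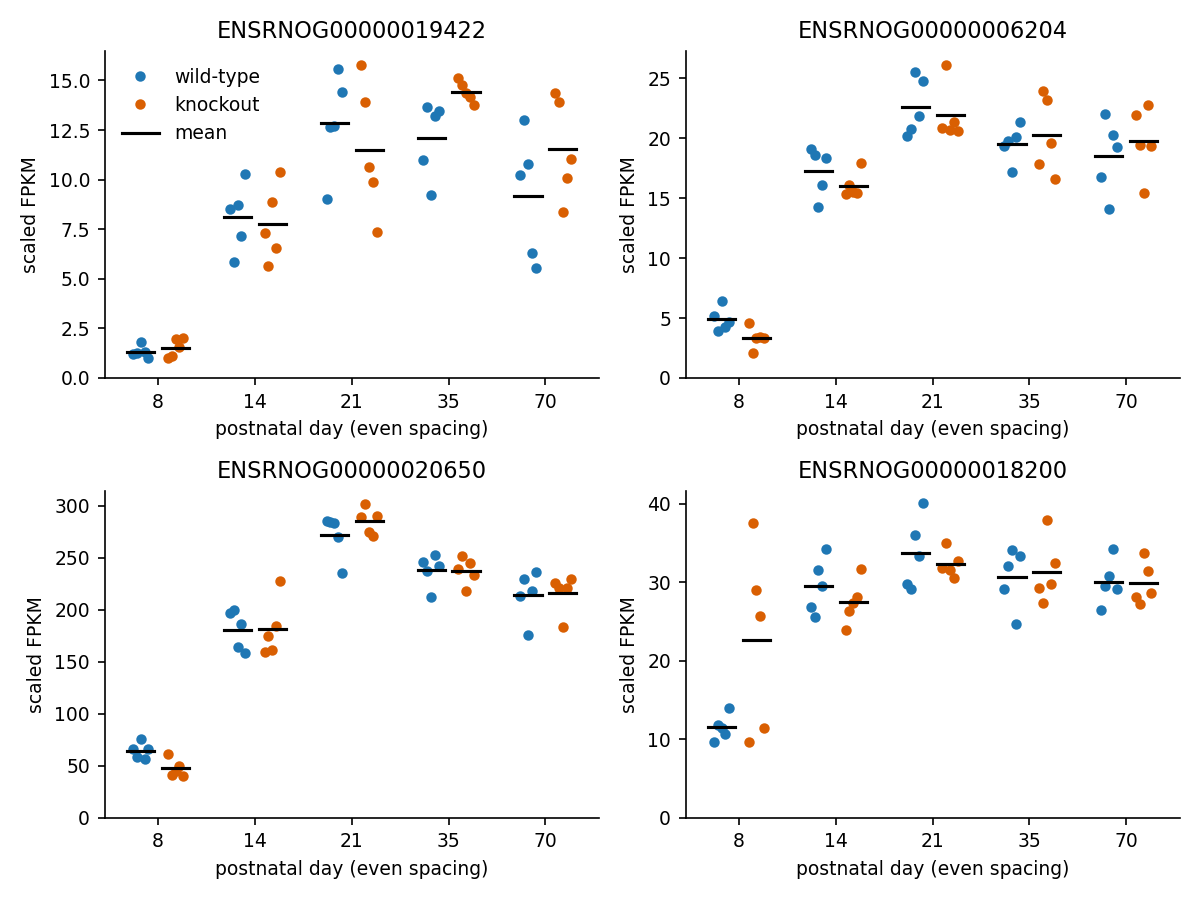
Scaled FPKM (vertical axis) in each library by postnatal day (evenly spaced) for 4 of the 163 genes, with wild-type libraries in blue, knockout libraries in orange and a bar for the mean of 5 libraries. The first pair has the largest rises, ENSRNOG00000020650 is lower in knockout libraries at day 8, and ENSRNOG00000018200 splits the knockout libraries of day 8 into 3 high and 2 low values.

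The plateau was not flat within the limits the rule allowed. From day 14 to 21, 150 of the 163 genes went on upward, by a median of 0.23 log2 units, and 91 by 0.2 or more. The day 70 level stood above that of day 14 in 118 genes, by a median of 0.14 over all 163. Day 21 was above day 70 in 127 genes, by a median of 0.12. The highest of the 5 ages was day 21 in 92 genes, day 35 in 42, day 70 in 20 and day 14 in 9. The share of the day 8 to 70 change that was complete by day 14 had a median of 88.1% and ranged from 69.0% to 199%. In 45 genes it exceeded 100%, which means that their day 14 mean lay above their day 70 mean. Abundant genes climbed further after day 14, with a median step to day 21 of 0.31 in the class of 50 FPKM or more and 0.16 in that under 5 FPKM. All of these ages but day 35 entered the rule's limits on the course.

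The late course was also seen in each genotype alone. In wild-type libraries 142 of the 163 genes were higher at day 21 than at day 14, by a median of 0.19, and in knockout libraries 153 were, by 0.26. From day 21 to 70 the median change was -0.13 in wild-type and -0.09 in knockout libraries, and 38 and 35 genes stood higher at day 70. These values come from separate libraries but from genes picked on both genotypes together.

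Day 35 gave a look at the plateau in libraries that the rule's limits on the course had not used. At day 35, 145 of the 163 genes lay within 0.4 of their day 14 mean and 159 lay within 0.4 of both the day 21 and the day 70 mean. The share of all genes within these limits was not computed. Against the mean of days 14, 21 and 70, day 35 differed by a median of 0.04 log2 units, with a range from -0.45 to 0.52. The quartiles of this difference were -0.03 and 0.12 for the 163 genes and -0.10 and 0.11 over all genes tested. Most genes thus lay close at day 35, and closeness there is not particular to the 163. The mean was higher at day 35 in 105 of the 163 genes, against 51.3% of all genes tested. In the limma test, with p-values adjusted by the Benjamini-Hochberg method over all genes tested, 19 genes were higher at day 35 and 3 lower, where 10.1% and 10.4% of all 14779 genes were. Together 22 of the 163 passed, against a background of 20.5%, a share of 13.5% that was not above the background. Among the other 352 early risers 191 were higher and 18 lower. Their choice required a change after day 14 or at day 21, so the contrast with them is set by the choice. The means of days 14, 21 and 70 of the 163 genes entered their choice as well. The day 35 libraries entered it only through the scaling and the average over all libraries. With quantile normalization the median difference was 0.01, the mean was higher in 87 genes, and 10 passed as higher and 4 as lower. The titles carry 2 numbers, of which the first recurs in some libraries of a group. With libraries of the same first number averaged, 7 genes were higher and 0 lower. The shares of all genes passing with quantile normalization or with this averaging are not given here, so these counts have no background.

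The genes that passed at day 35 moved little. The 19 that were higher differed by 0.14 to 0.52 log2 units with a median of 0.23. ENSRNOG00000022957 stood highest. Its 5 wild-type values at day 35 were 3.85, 3.88, 5.27, 5.84 and 6.29 FPKM and its 5 knockout values 3.00, 3.97, 4.39, 6.69 and 6.97. At day 14 the 10 libraries ran from 2.05 to 4.58 FPKM and at day 70 from 1.89 to 4.63, so the ages overlapped. The difference was 0.52 ± 0.15 (SE; limma adjusted p = 0.00711). ENSRNOG00000019422, the gene with the largest early rise, was also higher, by 0.42 ± 0.11 (SE; limma adjusted p = 0.00581).

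Of the 3 genes that were lower at day 35, ENSRNOG00000014366 had the largest difference, -0.28 ± 0.07 (SE; limma adjusted p = 0.00445). Its values at day 35 were 14.1, 16.7, 17.1, 17.3 and 20.9 FPKM in wild-type and 13.7, 15.2, 15.3, 17.1 and 18.4 in knockout libraries. They overlapped its day 70 range of 14.7 to 18.9 FPKM and lay mostly under its day 14 and 21 medians of 23.3 and 21.3. On the log2 scale its day 35 mean differed from its day 14 mean by -0.44 and its day 70 mean by -0.40, at the edge of what the rule allows. With libraries averaged by first title number, ENSRNOG00000014366 (adjusted p = 0.0854) and ENSRNOG00000022957 (adjusted p = 0.121) no longer passed limma. Over their 59 alternatives the adjusted p ranged from 1.90e-05 to 0.0854 for the first and from 0.00133 to 0.121 for the second. ENSRNOG00000041317 had the lowest fitted difference, -0.45 ± 0.37 (SE), and did not pass (limma adjusted p = 0.441). It is listed at 0 in 3 libraries, of days 35 and 70, and reached 7.40 FPKM in another library of day 35, so its plateau is poorly measured. Over all libraries, 3 of the 163 genes are listed at 0 in some library, 1 of them in 20 libraries, and an exact 0 in such a table can be a failed estimate.

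The genotype contrast did not enter the rule, because every day's mean held as many knockout as wild-type libraries. At day 8, before the rise, the 163 genes tended to stand lower in knockout libraries. The knockout mean was below the wild-type mean in 131 of them, or 80.4%, where this held for 52.3% of all genes tested. The median difference was -0.14 log2 units, with quartiles of -0.33 and -0.04, against -0.01 over all genes. The other 352 early risers gave 260 lower and a median of -0.12, so the lean was not a property of the plateau genes alone, and a difference between these sets was not tested. With the values as deposited 148 of the 163 were lower, with a median of -0.25 against -0.11 for all genes, and with quantile normalization 125 were lower.

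Few single genes passed. By limma 3 of the 163 were lower in knockout libraries at day 8 and 0 were higher, where 0.142% and 0.101% of all genes were (0.244% in either direction). Of the other 352 early risers 10 were lower and 1 higher. The share lower was thus 2.84% in them and 1.84% in the 163, so such calls were not particular to the 163. An unadjusted p under 0.05 was found for 53 of the 163, or 32.5%, for 25% of the other early risers and for 9.32% of all genes. In 9 genes all 5 knockout libraries lay below all 5 wild-type libraries, against 0.548% of all genes, and in 0 genes they lay above, against 0.304%. The genes were measured in the same libraries and can move together within a library. The counts of genes by genotype, here and in the other paragraphs, are therefore not independent observations of the genotype.

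ENSRNOG00000020650, the second most abundant of the 163, was one of the 3. Its day 8 values were 40.3, 41.4, 45.4, 50.3 and 61.7 FPKM in knockout and 56.4, 58.8, 66.2, 66.3 and 76.0 in wild-type libraries. Only the highest knockout library, 28-1 by the numbers in its title, reached into the wild-type range. The means were 47.8 ± 8.72 against 64.7 ± 7.68 FPKM (SD, n = 5 each). This was a log2 difference of -0.44 ± 0.10 (SE; adjusted p = 0.0360 by limma). At day 14 the means were 182 ± 27.9 and 181 ± 18.9 FPKM (SD, n = 5 each), closer than their spread. The highest means were those of day 21, 285 ± 12.4 in knockout and 272 ± 21.1 FPKM in wild-type libraries (SD, n = 5 each).

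ENSRNOG00000016776 was lower at day 8 too, with knockout values of 0.989, 1.20, 1.84, 2.04 and 2.10 FPKM and wild-type values of 2.45, 2.45, 2.63, 2.71 and 2.93. The genotypes did not overlap. The log2 difference was -0.59 ± 0.14 (SE; limma adjusted p = 0.0482), and at day 14 the means were 7.04 ± 0.717 and 6.61 ± 1.60 FPKM. One more gene had a difference of -0.35 ± 0.07 (SE; limma adjusted p = 0.0249), at 14.3 ± 1.91 against 18.3 ± 1.93 FPKM (SD, n = 5 each), and at day 14 stood at 27.8 ± 2.07 against 29.3 ± 1.65. For this gene too no knockout library reached the wild-type range.

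Leaving out a library or changing the test often ended these calls. Without knockout library 29-4 or 30-1, or without wild-type library 25-2 or 26-1, 0 of the 163 passed at day 8. In the same order, 0.00677%, 0.0541%, 0.0406% and 0.0406% of all genes did. When wild-type library 27-4 was left out 1 passed, where 0.142% of all genes did. Without wild-type library 21-3 of day 14, which enters only the spread, 5 passed, where 0.298% of all genes did. When knockout library 28-1 was left out 11 passed, where 1.09% of all genes did. With only the 10 libraries of day 8 in the fit, 0 passed (0% of all genes). With libraries averaged by first title number, 0 passed too (0.00677% of all genes). Array weights gave 19 lower and 3 higher, while calling 1.5% of all genes. The call of ENSRNOG00000016776 was lost in 39 of 60 alternatives (limma adjusted p from 0.00466 to 0.789) and that of ENSRNOG00000020650 in 12 (0.00119 to 0.789). That of the remaining gene was lost in 8 (0.00143 to 0.771). The direction held in all 60 for these 3 genes. Of the 60, however, 50 left out 1 library. Leaving out a library of another age cannot change the day 8 difference and alters only the spread. For those alternatives the direction was fixed in advance, and it says little about stability.

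Wild-type library 26-1 stood apart from the other day 8 libraries in these genes. The median of the 163 genes was 3.15 log2 units in that library and 2.78, 2.78, 2.84 and 2.86 in the other wild-type libraries, while the knockout libraries lay at 2.58, 2.66, 2.69, 2.74 and 2.82. It was above the mean of its group in 149 of the 163 genes and the highest of the 5 in 121, or 74.2%. Over all genes tested it was the highest of its group in 23.8%. The other early risers were also higher there, at a median of 2.27 against 2.03 to 2.10. The 393 genes that fell by 0.8 or more from day 8 to 14 had their lowest wild-type median in it, 3.34 against 3.63 to 4.04. Without library 26-1, 116 of the 163 genes were lower in knockout libraries (71.2%, against 51.8% of all genes tested) and their median difference was -0.08. Its scaling factor of 1.10 was like that of its group (1.09 to 1.12). Without it the day 8 difference was -0.38 for ENSRNOG00000020650 (limma adjusted p = 0.182), -0.56 for ENSRNOG00000016776 (0.160) and -0.29 for the other gene called (0.137). What set this library apart was not tested.

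**Figure D3:**
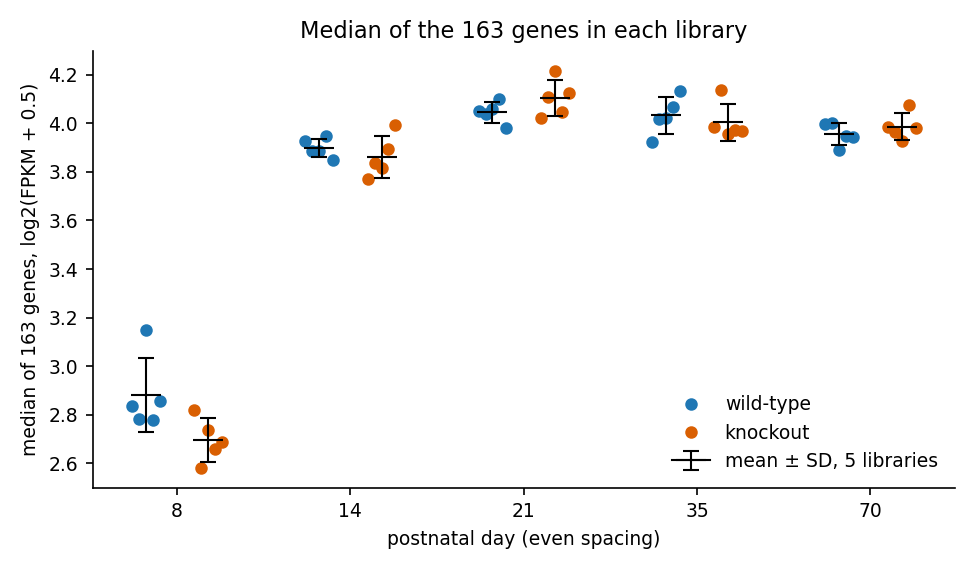
Median of the 163 genes in log2(FPKM + 0.5) (vertical axis) in each library by postnatal day (evenly spaced), with wild-type in blue, knockout in orange and the mean ± SD of 5 libraries in black. At day 8 one wild-type library stands at 3.15 and the other 9 libraries lie between 2.58 and 2.86, and the genotypes overlap at every age.

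The largest positive difference at day 8 came from a gene singled out after its values were seen. ENSRNOG00000018200 had wild-type values of 9.72, 10.7, 11.5, 11.8 and 14.0 FPKM at day 8. The knockout values were 9.67 in library 28-1 and 11.4 in library 30-5, inside or near the wild-type range, but 25.7 in 30-1, 29.1 in 29-5 and 37.6 in 29-4. The 3 high libraries were thus above the lowest library of day 14, since the lowest and highest libraries of both genotypes were 23.9 and 34.2 FPKM at day 14 and 26.5 and 34.3 FPKM at day 70. The log2 difference at day 8 was 0.77 ± 0.19 (SE) and did not pass (limma adjusted p = 0.0644). It passed without library 28-1 (adjusted p = 0.000282) or 30-5 (0.00298) and with array weights (2.08e-05), while the highest adjusted p over its 60 alternatives was 0.995.

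At later ages the genotype differences were smaller in the median, and at days 21 and 70 most of the 163 genes stood higher in knockout libraries. At day 14, 98 of the 163 genes were lower in knockout libraries (60.1%, against 47.3% of all genes) with a median of -0.02. At days 21, 35 and 70 the numbers lower were 55, 89 and 49 (33.7%, 54.6% and 30.1%), against 48.4%, 50.6% and 50.7% of all genes. Among the other 352 early risers 42.6%, 59.9% and 33% were lower. The medians of the 163 genes were 0.05, -0.02 and 0.05. With the values as deposited, 91 genes were lower at day 70 and the median was -0.01, while that of all genes was -0.06. The median of the 163 genes minus that of all genes was 0.06 after scaling and 0.05 as deposited. By limma 0 of the 163 passed at any of these ages, where 0.00677% of all genes passed at day 14 and 0% at the others. Unadjusted p-values under 0.05 were found for 3, 2, 7 and 1 of the 163 at days 14, 21, 35 and 70, and for 2.38%, 2.95%, 2.55% and 2.4% of all genes. On average over the ages 0 passed (background 0.0338%), and 16 had an unadjusted p under 0.05, or 9.82% against 5.87% of all genes. The 5 knockout libraries lay wholly below the 5 wild-type libraries in 0 of the 163 genes at days 14, 21 and 70 (background 0.25%, 0.291% and 0.264%) and in 1 at day 35 (0.162%). They lay wholly above in 0 at days 14 and 70 (0.183% and 0.244%), 3 at day 21 (0.345%) and 1 at day 35 (0.129%). A p-value that misses the threshold does not show that the levels were equal.

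**Figure D4:**
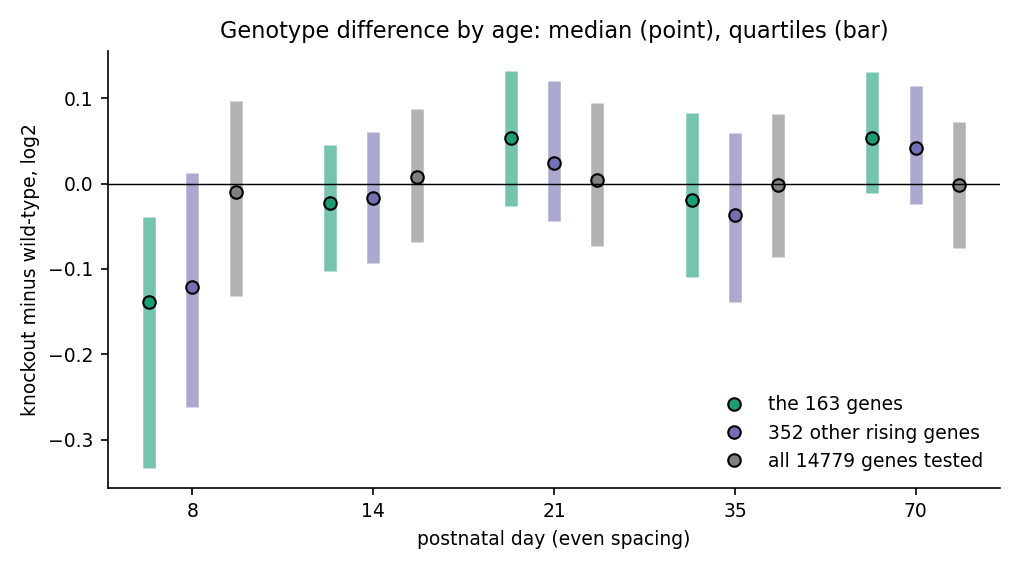
Knockout minus wild-type difference in log2(FPKM + 0.5) (vertical axis) at each postnatal day (evenly spaced) for the 163 genes in green, the 352 other early risers in purple and all 14779 genes tested in grey. Points are medians over genes and bars span the quartiles, and the 163 genes have a median of -0.14 at day 8 and between -0.02 and 0.05 at the later ages.

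The rise from day 8 to 14 was larger in knockout libraries for most of the genes, none of which passed the test. It had a median of 1.08 log2 units in knockout and 0.95 in wild-type libraries, and it was larger in knockout in 116 of the 163 genes (71.2%, against 51.6% of all genes tested and 232 of the other 352 early risers). The median of the difference between the rises was 0.14, and 0.07 without wild-type library 26-1. For each gene this difference is the genotype difference at day 14 minus that at day 8. It uses the same day 8 libraries as the lean described above and is not independent of it. Tested gene by gene, 0 of the 163 had a rise that differed between genotypes by limma (background 0%), and 26 had an unadjusted p under 0.05, or 16% against 6.25% of all genes. For the other early risers this share was 13.6%. In ENSRNOG00000016776 the rise was 1.85 in knockout and 1.15 in wild-type libraries, a difference of 0.70 ± 0.20 (SE; limma adjusted p = 0.634). Likewise 0 of the 163 had a genotype difference that depended on age in the limma F test (background 0.00677%), and 19 had an unadjusted p under 0.05, or 11.7% against 3.18% of all genes. The share was 9.09% for the other early risers. Without knockout library 28-1 of day 8, 1 gene passed each of these tests. The shares of all genes passing them without that library are not given here, so this count has no background. With array weights 1 gene passed each as well, while 0.169% and 0.223% of all genes did.

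The rule was also applied to each genotype alone. It picked 167 genes in wild-type and 242 in knockout libraries, and 86 in both, which is 51.5% of the first list and 35.5% of the second. All 86 were among the 163, which the rule requires, since each day's mean weighs both genotypes equally. Of the 163, 110 rose by 0.8 or more in both genotypes, 40 fell short of it in wild-type and 13 in knockout libraries. Membership near a threshold thus depended on which libraries entered the mean. All 163 rose in the mean in both genotypes, by at least 0.40 in wild-type and 0.45 in knockout libraries.

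**Figure D5:**
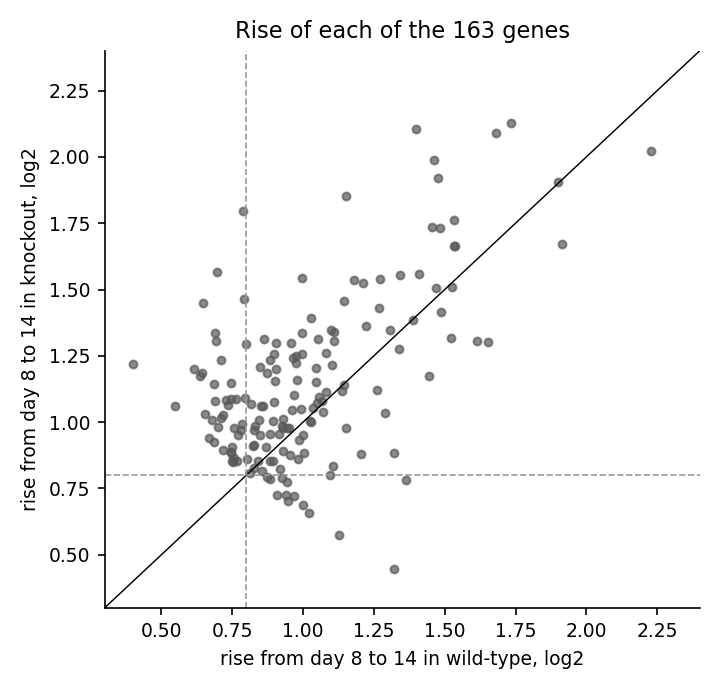
Rise from day 8 to 14 in log2(FPKM + 0.5) of each of the 163 genes in wild-type (horizontal axis) and knockout libraries (vertical axis). The solid line marks equal rises and the dashed lines mark 0.8, and 116 points lie above the solid line.

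From day 14 on, other libraries deviated less. Knockout library 24-2 of day 14 was above its group mean in 140 of the 163 genes and the highest of its group in 52.8% (22.3% of all genes tested). Wild-type library 8-4 of day 35 was above in 122 and highest in 49.1% (23.5% of all genes). Over the 10 libraries of day 14 the median of the 163 genes was 3.77 to 3.99. It was 3.98 to 4.22 over those of day 21, 3.92 to 4.14 over those of day 35 and 3.89 to 4.08 over those of day 70. Neighbouring ages overlapped in these medians from day 14 on, while every library of day 14 lay above every library of day 8. The spread of a single gene between libraries of one group, pooled over the groups, had a median of 0.21 log2 units (SD), close to the 0.19 of all genes averaging at least 1 FPKM. The summed FPKM of a library was between 330440 and 2141920, with 48.8% to 82.2% of it in its 50 most abundant rows, and values were compared after rescaling.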

How the data were processed

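RNA sequencing of 50 libraries was analysed. Per the labels' protocols, RNA was depleted of rRNA, libraries had 10 PCR cycles and 50 bp single-end reads, and gsnap aligned them to rn4. BWA 0.6.1, Cufflinks, bedtools and rn4 are listed in the submitters' processing notes. Annotation, strand setting and which of the aligners made the tables are not given in the sources used here. FPKM values were deposited by the authors in one table per genotype. Absolute depth is unknown. All columns matched a sample by title (0 unmatched), and 0 of 29516 identifiers matched a symbol, so gene lists drawn up for this work (cell types, synapses, channels and others) and promoter sequences were not used here.

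Scaling factors (0.829 to 1.20) were the medians, over 15296 rows above 0 in all libraries, of a library's FPKM relative to the row's geometric mean. Values were tested as log2(FPKM + 0.5) for 14779 genes that averaged 0.5 FPKM or more, so fold changes of low genes are understated. limma 3.58.1 (R 4.3.3; trend, robust) was fitted to 10 groups, with Benjamini-Hochberg adjustment over all genes and a threshold of 0.05. It was tested on simulated data. All 163 genes passed the filter. Python 3.11.15 with pandas 2.3.3, numpy 2.4.6 and matplotlib 3.10.9 made the summaries. Members and lists were chosen with earlier results of these data known. Named were the 2 genes with the largest rise, genes called between genotypes, and the 2 highest and 2 lowest at day 35, with at most 2 identifiers per direction since no symbols were matched. Alternatives were other scalings, pseudocounts, filters, array weights, averaging or a random effect by first title number, fits of one day and leaving out each library.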

Additional observations from a re-analysis of the deposited data

Results flagged for a closer look

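In 6 of 90 checks of groups of 5 libraries, 1 library stood far from the others. Its gap to its nearest neighbour, as a share of the group's range, was above Dixon's critical value. The 10 groups of ENSRNOG00000019422 entered the 90 more than once, so fewer separate groups were examined. Chance gives about 1 in 20. For the median of the 163 genes, the groups with such a library were wild-type day 8 (ratio 0.783, library 26-1 high) and knockout day 35 (0.857, library 7-2 high). In ENSRNOG00000006204 it was knockout day 21 (0.864, library 13-4 at 26.1 FPKM against 20.6 to 21.4). In ENSRNOG00000020650 it was knockout day 70 (0.811, library 5-3 at 184 FPKM against 221 to 229). In ENSRNOG00000041317 it was wild-type day 14 (0.801, library 21-3 at 5.90 FPKM against 2.15 to 2.89) and wild-type day 8 (0.747, library 25-3 at 3.71 FPKM against 0.603 to 1.39).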

How the results depend on the processing

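Of 92 comparisons of a count with its value under another setting, 81 stayed within 1.5 times and 11 did not. A count of 0 under both settings was taken as unchanged. Most of the 81 were of this kind, so they say little about stability. At day 8, 3 of the 163 genes differed between genotypes (0.244% of all genes). The values as deposited gave 1 (0.128% of all genes), quantile normalization 1 (0.257%) and a random effect for the first title number 1 (0.156%). Averaging by that number gave 0 (0.00677%), the libraries of day 8 alone 0 (0%) and array weights 22 (1.5%). Array weights gave 1 gene for the difference in the rise (0.169% of all genes) and 1 for the dependence on age (0.223%). At day 35, 22 genes passed (20.5% of all genes did). The values as deposited gave 13, quantile normalization 14 and averaging by first title number 7. The shares of all genes under these day 35 settings are not given here. Leaving out each library in turn gave 0 to 11 genes at day 8, 0 to 1 for the difference in the rise, 0 to 1 for the dependence on age and 17 to 27 at day 35. For the ranges other than day 8, the shares of all genes are not given here. The causes were not tested. The rule itself picked 169 genes from the values as deposited (134 of the 163), 171 after quantile normalization (141), 200 with a pseudocount of 0.1 (154), 139 with 1 (127) and 153 to 187 when a library was left out. No paired analysis was possible because the groups share no replicate number. The depth behind each value is unknown, and with 5 libraries per group small genotype differences could be missed.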
